A study of Mus musculus with 27 samples.

Results

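Respiratory complexes II to V are described here through their nuclear-encoded subunit genes. The members were the rows of the table whose symbol begins with Uqcr or Atp5, or is Sdha, Sdhb, Sdhc, Sdhd or Cyc1, or is a Cox gene numbered 4 to 8 followed by a letter. Pseudogene rows ending in -ps were left out, which removed 2 of 50 matching rows and left 48 members of the 36333 genes listed. Complex II had 4 members, complex III 9, complex IV 17 and complex V 15. The other 3 members, Atp5s, Atp5sl and Cox7a2l, carry the names but are not core subunits. Cox7a2l is a factor that joins complexes III and IV into supercomplexes.

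Complex II (succinate dehydrogenase) feeds electrons from the citric acid cycle into the ubiquinone pool, complex III (the cytochrome bc1 complex) passes them to cytochrome c, complex IV (cytochrome c oxidase) passes them to oxygen, and complex V is the ATP synthase. Several complex IV subunits are encoded by paired genes, 1 active in most tissues and 1 in heart and skeletal muscle, and the c subunit of the ATP synthase is encoded by 3 genes that give the same mature protein. Part of complexes III, IV and V is encoded in mitochondrial DNA.

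RNA was measured in male MlxKO mice, bred from a B6.129 line with the allele Gt(ROSA)26Sortm1(cre/ERT2)Tyj and from Mlx Flox/Flox animals, in which Mlx, a partner of glucose-responsive transcription factors, was deleted by a tamoxifen-inducible Cre driven from the ubiquitous ROSA26 promoter. All groups carried the deletion and had received tamoxifen at weaning (75 mg/Kg, 5 daily injections), and WT mice were not analysed here. At 5 months, 4 mice, called A, B, C and D here (muscle libraries X5S4299, X5S5001, X5S5238 and X5S5239), each gave liver, omental adipose tissue and skeletal muscle. At 20 months, 5 mice were sampled per tissue, named by their numbers, with numbers that are not shared between tissues, so they were treated as separate animals. The labels give this age as 20 months, but the library names of these mice carry X18 (X18L16, for example). In the authors' table of Mlx transcript, entries that end in the same numbers carry the age in months that X18 spells. The exact age of these mice is therefore uncertain. Each library held 14384695 to 25673919 reads on genes, and the values below are the deposited ones, that is, reads scaled to the depth of the library (CPM) and divided by a further factor for each library.

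Marker genes matched the tissue labels. The summed value of 5 hepatocyte genes was 45242 to 160815 in liver and at most 319 elsewhere, that of 5 adipocyte genes was 5886 to 13229 in adipose tissue and at most 439 elsewhere, and that of 5 fast muscle fibre genes was 89189 to 120229 in muscle. Some adipose libraries also held fast fibre RNA, with sums of 4.95 to 430.4 at 5 months and 14.2 to 187 at 20 months. The range of Mlx itself was 18.8 to 32.4 for liver, 8.19 to 13.9 for adipose tissue and 7.04 to 11.6 for muscle, and without WT libraries these values do not check the deletion. By the authors' qRT-PCR, skeletal muscle of mice A, B, C and D kept more Mlx transcript, relative to WT tissue, than liver or adipose tissue. In tissue RNA of this kind, fewer cells of a type and less RNA per cell cannot be told apart.

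The clearest pattern among the members was a change of complex IV isoforms between muscle and the other tissues. Cox6a2 and Cox8b, the muscle forms of subunits VIa and VIII, replaced Cox6a1 and Cox8a almost completely in muscle at both ages. Cox7a1, the muscle form of subunit VIIa, was added there to Cox7a2, which stayed abundant. The promoters of the isoforms of subunits VIa, VIII and VIIa are printed first, because these pairs carry the pattern. They are the 250 bases before and the 50 after the RefSeq start of transcription in GRCm38.p6, written 5' to 3' on the strand of the gene. Capitals mark matches on either strand to the core of the NRF1 site (GCGCANGCG) or to the ETS site that GABPA binds (CCGGAAG), and a palindromic stretch can hold 2 overlapping NRF1 matches.
Cox6a1 (chr5:115348909-115349208, minus strand): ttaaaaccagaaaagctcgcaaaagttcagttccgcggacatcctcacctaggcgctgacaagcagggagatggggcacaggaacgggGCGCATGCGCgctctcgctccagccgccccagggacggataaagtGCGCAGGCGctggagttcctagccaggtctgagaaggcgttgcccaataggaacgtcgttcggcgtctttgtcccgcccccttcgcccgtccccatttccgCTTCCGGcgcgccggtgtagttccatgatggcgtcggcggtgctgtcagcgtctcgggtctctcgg
Cox8a (chr19:7217567-7217866, minus strand): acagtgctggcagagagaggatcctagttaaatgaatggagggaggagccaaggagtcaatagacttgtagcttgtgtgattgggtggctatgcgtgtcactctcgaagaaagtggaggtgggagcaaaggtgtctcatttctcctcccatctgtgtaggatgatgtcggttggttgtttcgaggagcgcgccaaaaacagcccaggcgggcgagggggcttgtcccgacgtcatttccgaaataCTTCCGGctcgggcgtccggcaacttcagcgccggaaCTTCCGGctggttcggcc
Cox8b (chr7:140900397-140900696, minus strand): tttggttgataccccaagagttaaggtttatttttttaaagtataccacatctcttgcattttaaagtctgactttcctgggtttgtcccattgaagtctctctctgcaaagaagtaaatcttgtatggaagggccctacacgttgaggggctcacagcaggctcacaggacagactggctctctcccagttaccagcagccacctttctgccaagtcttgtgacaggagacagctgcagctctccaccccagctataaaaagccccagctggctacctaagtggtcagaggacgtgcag
Cox7a2 (chr9:79759804-79760103, minus strand): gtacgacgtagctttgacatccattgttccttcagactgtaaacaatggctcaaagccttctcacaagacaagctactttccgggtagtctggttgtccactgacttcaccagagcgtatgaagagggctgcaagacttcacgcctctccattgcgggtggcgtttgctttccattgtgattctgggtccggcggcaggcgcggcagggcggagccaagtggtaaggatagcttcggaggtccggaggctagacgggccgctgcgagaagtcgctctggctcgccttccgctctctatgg
Cox7a1 (chr7:30183921-30184220, plus strand): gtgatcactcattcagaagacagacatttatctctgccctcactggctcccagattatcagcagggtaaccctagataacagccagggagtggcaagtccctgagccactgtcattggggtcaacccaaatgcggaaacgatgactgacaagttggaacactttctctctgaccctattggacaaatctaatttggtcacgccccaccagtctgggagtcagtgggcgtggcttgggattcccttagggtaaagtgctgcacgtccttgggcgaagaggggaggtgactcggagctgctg
Cox6a1, the form present in liver, held 32 CpG pairs, 3 NRF1 matches and 1 ETS match in this window, and Cox8a held 19 CpG pairs and 2 ETS matches. Cox8b held 2 CpG pairs and Cox7a1 7, with no match to either motif. Cox7a2, with 20 CpG pairs, also held no match. Other genes that differed between liver and muscle are not printed. Of these, Cox6b2, higher in liver, held 10 CpG pairs, and Atp5g1, higher in muscle, held 16, both with no match to either motif. Cox6a2 is not in the promoter table.

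Cox6a1 was 392, 336, 452 and 446 in the livers of mice A, B, C and D, and 22.4, 20.6, 33.5 and 30.5 in their muscles. The groups did not come near each other, and the mean in liver was 15.2 times that in muscle (log2 difference of muscle from liver -3.90 ± 0.17 (SE), limma, adjusted p = 7.35e-17). Cox6a2 was 578, 614, 1003 and 520.1 in the same muscles. In liver it rested on at most 5 reads in a library, with values of 0.0636, 0, 0.356 and 0. Per length, Cox6a2 made up 93.5% to 96.2% of the pair in muscle at 5 months and 95.4% to 96.1% at 20 months.

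Adipose tissue held Cox6a1, at 129, 111, 159 and 201 in the same order of mice. Its Cox6a2 was 0.128, 1.44, 2.85 and 3.70, and the summed fast fibre genes in those libraries were 4.95, 237, 367 and 430.4. The order of the 4 libraries was the same for both. At 20 months Cox6a2 was 0.619, 1.75, 1.43, 0.469 and 0.358 in mice 36 to 40 in order, against fast fibre sums of 14.2, 187, 51.0, 26.2 and 22.2. The limma call of Cox6a2 as higher in adipose tissue than in liver (1.28 ± 0.29, adjusted p = 0.000346) thus stands beside muscle RNA in the same libraries, whose part in it, and in the adipose levels of Cox8b and Cox7a1 below, was not tested.

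Cox8a and Cox8b, the forms of the small subunit VIII, showed the same exchange. Cox8a was 264, 202, 302 and 312 in liver and 29.8, 23.4, 37.3 and 21.2 in muscle, 9.68 times higher in liver by the means (muscle minus liver -3.24 ± 0.20, adjusted p = 7.91e-14). Cox8b was 199.5, 200.3, 429 and 200.5 in muscle and had 0 reads in the livers of the 4 mice. Against the value that 3 reads would have in the shallowest of those livers, 0.240, muscle was at least 1072-fold higher. Adipose tissue lay between, at 1.47, 1.55, 2.95 and 4.66, by the mean at least 11.1-fold higher than the same bound. These values ran in the order of the fast fibre sums of those libraries given above, but not in proportion. Mice A and B had 1.47 and 1.55 beside sums of 4.95 and 237. By the means, muscle was 96.8 times higher than adipose tissue. At 20 months each liver held 1 to 9 reads of Cox8b.

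Cox7a1 was 142, 151, 254 and 129.6 in muscle at 5 months and at most 0.927 in liver, 230.3 times higher by the means (6.57 ± 0.28, adjusted p = 3.47e-17). In adipose tissue it was 0.383, 0.517, 1.63 and 2.12, again in the order of the fast fibre sums but not in proportion to them. These values overlapped liver and were not called different from it (0.24 ± 0.28, adjusted p = 0.45). Unlike Cox6a1 and Cox8a, its partner Cox7a2 remained at a similar order of magnitude in muscle, at 82.1, 79.2, 145 and 77.4, against 127, 112, 132 and 134 in liver. The Cox7a2 difference between muscle and liver was small (-0.44 ± 0.16, adjusted p = 0.0146), its groups overlapped, and the call was lost without mice A and B (adjusted p = 0.184).

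**Figure D1:**
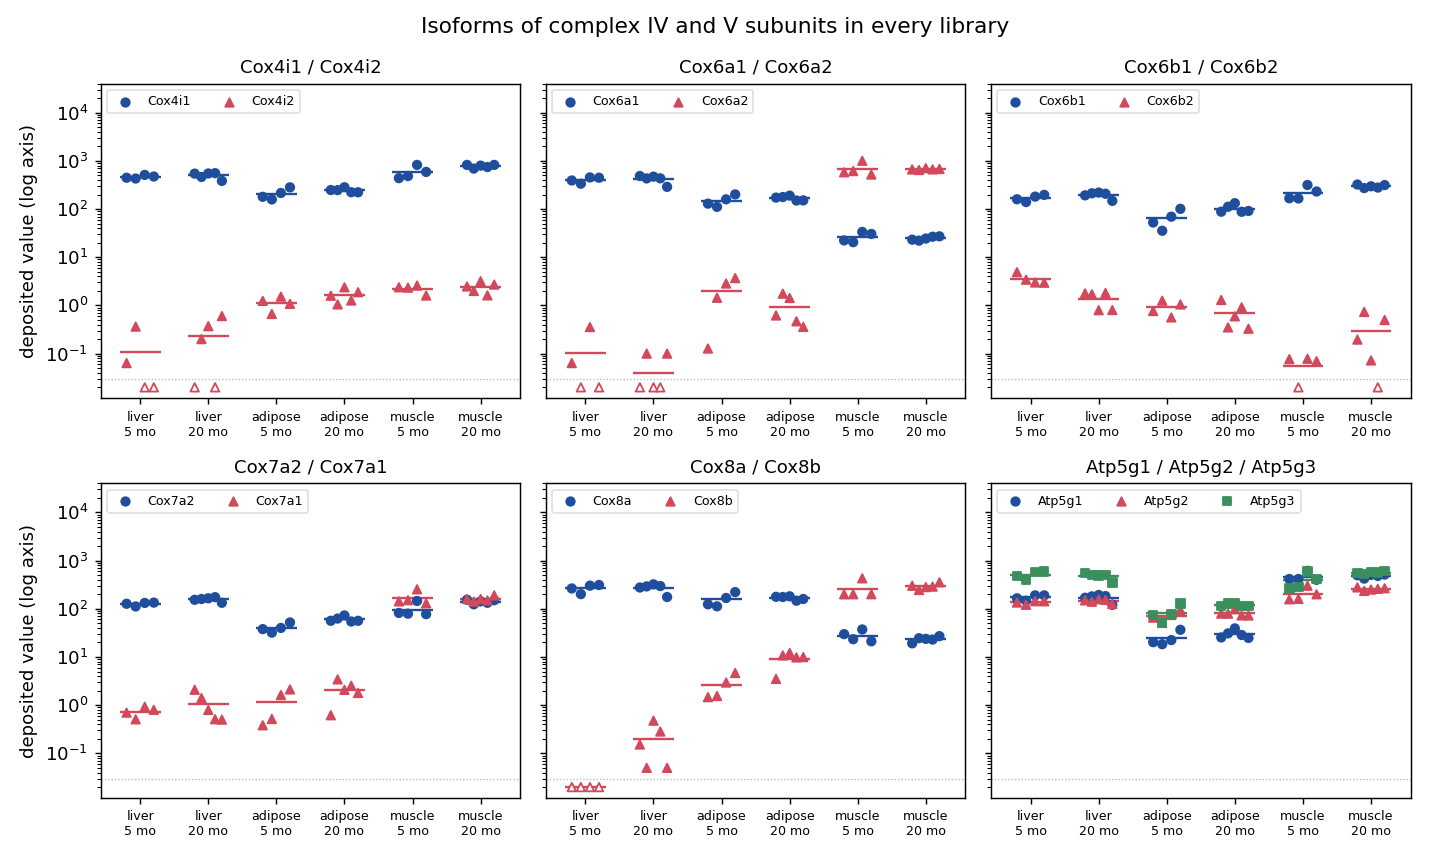
Deposited value (log axis) of each isoform in the 27 libraries, by tissue and age, with points for libraries, bars for group means and open symbols for libraries with a value of 0, drawn below the dotted line. Cox6a2 (520.1 to 1003 at 5 months) lies above Cox6a1 in each muscle library and far below it in each liver and adipose library, while Cox7a1 and Cox7a2 lie close together in muscle.

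The 3 genes for the c subunit of the ATP synthase were present in all tissues but in different proportions. Atp5g1 was 415, 415, 615 and 399.6 in muscle, 165, 147, 190.1 and 189.9 in liver, and 20.3, 18.4, 22.4 and 36.7 in adipose tissue. The 3 groups did not overlap, and muscle was 2.66 times liver and 18.8 times adipose tissue by the means (log2 differences 1.39 ± 0.18 and 4.21 ± 0.18, adjusted p = 1.45e-07 and 9.66e-17). Atp5g3 was higher in liver and muscle than in adipose tissue, and between muscle and liver its difference was not called (-0.45 ± 0.22, adjusted p = 0.0684). Atp5g2 took 36.2% to 42.6% of the reads of the 3 genes in adipose tissue at 5 months and at most 19.9% in liver and muscle at that age. Of the 50-base words of Atp5g2, 87.4% also occur in transcripts of other genes, mostly the pseudogene Gm10175, so its level depends on how such reads were assigned.

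Other paired genes were dominated by 1 form in every tissue. Cox4i2, the form of subunit IV known from lung, made up at most 0.838% of the Cox4i reads in any library. It was 2.38, 2.34, 2.58 and 1.60 in muscle at 5 months, above liver (1.55 ± 0.19, adjusted p = 3.6e-08), where it was at most 0.364. Cox6b2, known from testis, was the lone minor form with more in liver, at 4.90, 3.42, 2.99 and 2.96 at 5 months, against at most 0.0783 in muscle (-2.09 ± 0.20, adjusted p = 7.17e-10). Cox7b2 had no read in the 27 libraries, where 3 reads would be worth 0.0703 to 0.242. Cox8c had 5 reads in all, in 3 adipose libraries. These counts limit what could be seen at this depth.

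By the deposited values, most members were lowest in adipose tissue and highest in muscle at 5 months. At that age the values of all genes in a library summed to 1319547 to 1395315 in liver and 559419 to 646657 in adipose tissue. Muscle libraries summed to 1105276 to 1240396, so the further factor differed between tissues. Of 46 members tested at 5 months, 42 were lower and 3 higher in adipose tissue than in liver, where 36.5% of all 15572 genes tested were called lower and 39.9% higher. The median log2 difference was -1.65 for the members and 0.07 for all genes. All 4 tested members of complex II, all 9 of complex III and all 15 of complex V were lower, and the 3 that were higher were Cox4i2, Cox6a2 and Cox8b. When values were rescaled without the 20 most abundant genes, the median of all genes moved to 0.85, and 35 members were lower and 4 higher, with Cox8a, Atp5g2 and Cox7a2l turning direction.

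Muscle exceeded adipose tissue for 43 of the 46 members, against 30.9% of all genes, with a median log2 difference of 2.25 (-0.18 for all genes). The 3 lower members, Cox6a1, Cox8a and Cox6b2, compare with 41.9% of all genes. Between muscle and liver, 29 members were higher and 4 lower (36.8% and 36% of all genes), and 13 were not called. The 4 lower members were Cox6a1, Cox8a, Cox6b2 and Cox7a2, and without muscle C there were 7. The members together took 1.43% to 2.03% of the summed values in muscle at 5 months, 0.751% to 0.925% in liver and 0.515% to 0.795% in adipose tissue. At 20 months these shares were 1.94% to 2.26% in muscle, 0.910% to 0.986% in liver and 0.673% to 0.775% in adipose tissue. Over all genes, the values of a liver library summed to 1319547 to 1395315 at 5 months and 952696 to 1233458 at 20 months.

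**Figure D2:**
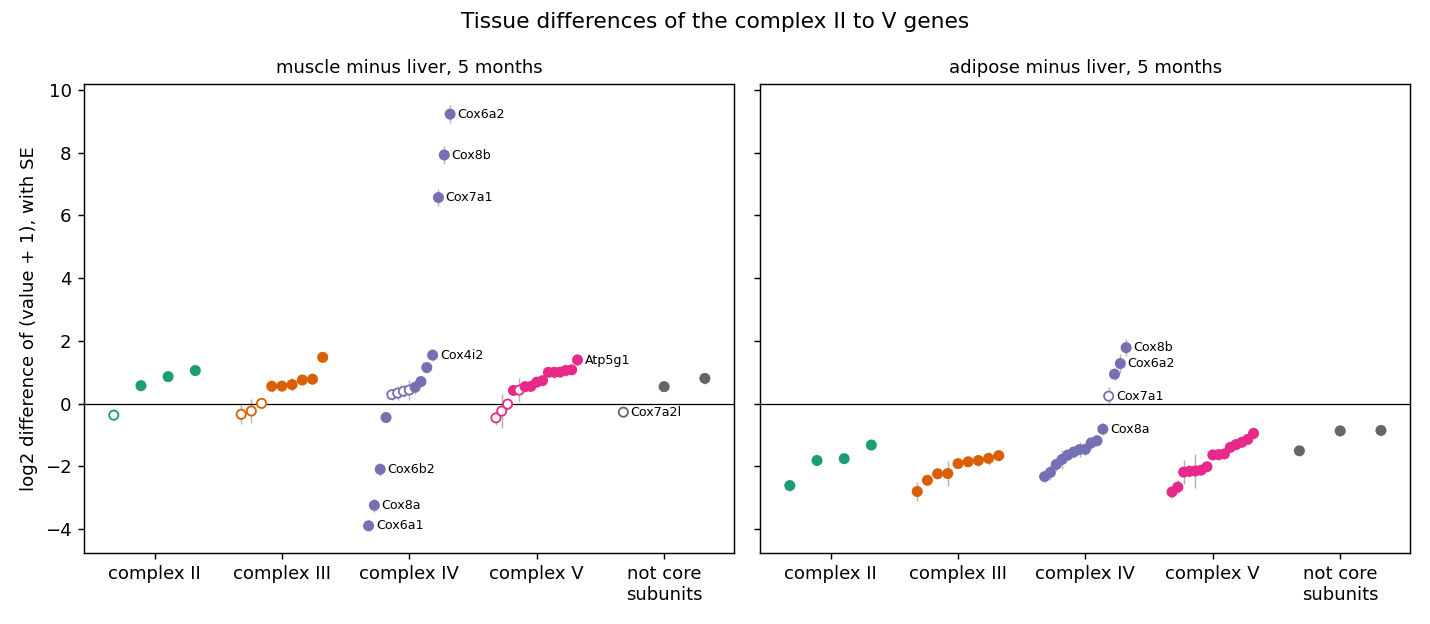
Log2 difference (± SE) of each member at 5 months, muscle minus liver on the left and adipose minus liver on the right, grouped by complex, with filled points for adjusted p under 0.05. Most members sit near the group medians of 0.56 and -1.65, and Cox6a2, Cox8b and Cox7a1 stand far above them in muscle, with Cox6a1, Cox8a and Cox6b2 far below.

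Per kilobase of transcript at 5 months, Atp5b, the catalytic beta subunit of the ATP synthase, was the highest complex V member in each tissue, at 909.8 ± 32.6 (SD, n = 4) in liver, 391 ± 68.7 in adipose tissue and 1831 ± 177 in muscle. Sdha, the flavoprotein subunit, led complex II in each tissue, at 211 ± 20.2, 84.4 ± 9.79 and 384 ± 48.0. Other leaders depended on the tissue. In complex III the hinge protein gene Uqcrh led in liver (319.9 ± 22.7) and adipose tissue (92.1 ± 26.0), and the core protein gene Uqcrc1 led in muscle (593 ± 66.1). In complex IV the leader was Cox6a1 in liver (712 ± 95.5), Cox8a in adipose tissue (285 ± 90.5) and Cox6a2 in muscle (998 ± 323). Cox8a in adipose tissue did not exceed the next member, Cox4i1 (277 ± 71.9), by more than the spread between mice. Most other leaders also overlapped the next member in their range over mice. Examples of the next member are Sdhd (191 ± 17.1) and Uqcr11 (268 ± 108) in liver, and Cox4i1 (773 ± 228) in muscle. Only Atp5b in each tissue and Sdha in adipose tissue stood clear of the next member.

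Within complex II the membrane anchor Sdhd departed from its partners. Sdha was 588, 546, 633 and 682 in liver and 961, 1072, 1294 and 1133 in muscle (muscle minus liver 0.86 ± 0.13, adjusted p = 1.76e-06). The iron-sulfur subunit Sdhb (1.05 ± 0.15) and the anchor Sdhc (0.57 ± 0.13) were also higher in muscle, with adjusted p = 4.25e-07 and 0.000282. Sdhd was 256, 206, 239.8 and 239 in liver and 143, 141, 249 and 217 in muscle, with overlapping groups and no call (-0.37 ± 0.19, adjusted p = 0.0797).

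With age, the balance of the subunit VIIa isoforms in muscle moved. Cox7a2 was 82.1, 79.2, 145 and 77.4 at 5 months and 154, 124, 143, 133 and 151 at 20 months, while Cox7a1 was 142, 151, 254 and 129.6 and then 159, 141, 159, 149 and 189. Cox7a1 thus took 63.4%, 65.5%, 63.6% and 62.6% of the reads of the pair in the younger muscles and 50.8%, 53.2%, 52.7%, 52.7% and 55.7% in the older ones. No older muscle reached the lowest younger one, and the gap held for mice C and D alone. Per length the shares were 73.7% to 76.1% and 63.4% to 67.8%. The 95% Wilson interval of each share was at most 3.49 percentage points wide, for counting error only. These shares are given as a description, with no test.

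Taken as single genes, Cox7a2 rose in muscle (0.60 ± 0.17, adjusted p = 0.0317) and Cox7a1 was at -0.04 ± 0.17 (adjusted p = 0.894). The Cox7a2 call passed in 3 of 9 fits that left out 1 library and was lost without mice A and B (0.40, adjusted p = 0.198). For the other muscle pairs the shares of the ages overlapped. Cox8b took 87.0% to 92.0% of the Cox8 reads at 5 months and 90.9% to 94.0% at 20 months. Among the c subunit genes, the share of Atp5g1 was 49.8%, 48.2%, 40.6% and 39.3% and then 35.9% to 37.7%. The younger mice were not alike here, since A and B stood well above the other pair.

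**Figure D3:**
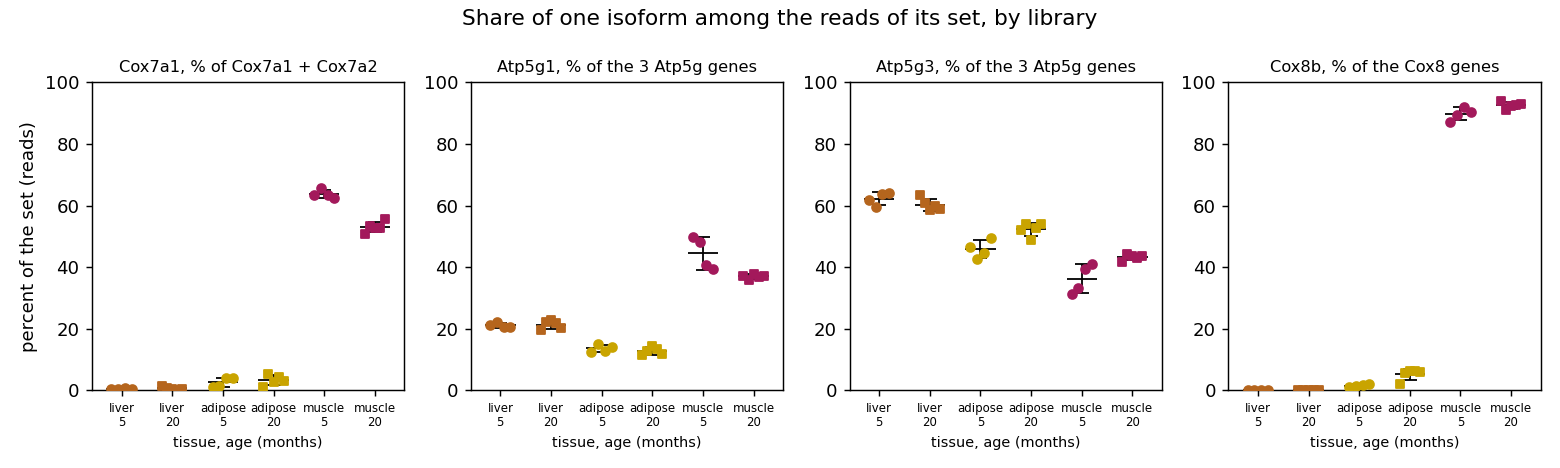
Share (percent of reads of the set, linear axis from 0 to 100) of Cox7a1, Atp5g1, Atp5g3 and Cox8b in each library, circles for 5 and squares for 20 months, with mean and SD in black. In muscle the Cox7a1 share was 62.6% to 65.5% at 5 months and 50.8% to 55.7% at 20 months, and for Atp5g1 and Atp5g3 the ages are separated by a smaller gap.

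In liver, few members changed with age. Of 42 tested, 3 were higher and 2 lower at 20 months, against 10% and 9.79% of the 12654 genes tested, and the median log2 change was -0.01 (0.00 for all genes). Cox6b2 fell from 4.90, 3.42, 2.99 and 2.96 to 1.78, 1.70, 0.795, 1.82 and 0.802, with no overlap (-0.95 ± 0.21, adjusted p = 0.0151). This call passed in each of 9 fits that left out 1 library and was lost without mice A and B (-0.77, adjusted p = 0.127). Atp5b, at 1726, 1663, 1779.9 and 1804 and then 1426, 1349.7, 1311, 1273 and 965, also fell without overlap (-0.47 ± 0.15, adjusted p = 0.0476). Its partner in the catalytic head, Atp5a1, was 1455, 1395, 1424 and 1516 and then 1209, 1213, 1149, 1211 and 884. Those ages did not overlap either, but the change was not called (-0.36 ± 0.14, adjusted p = 0.0891). When values were rescaled without the 20 most abundant genes, which moved the median of all genes to 0.16, the counts were 11 higher and 1 lower, with 2203 of all genes higher and 477 lower. Cell type markers also moved in these livers. Hepatocyte sums were 103440 to 160815 at 5 months and 45242 to 96006 at 20 months, red blood cell sums 486 to 611 and 732 to 966, and macrophage sums 97.7 to 161 and 133 to 542. Their part in the changes of the members was not tested.

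The members that rose in liver were Atp5e, the epsilon subunit (0.51 ± 0.16, adjusted p = 0.0472), Atp5sl (0.35 ± 0.10, adjusted p = 0.038) and Cox7a2l (0.30 ± 0.09, adjusted p = 0.0449). Cox7a2l was 112, 102, 124 and 117 at 5 months and 132, 134, 151, 139 and 144 at 20 months. Its ages did not overlap, nor did those of Atp5sl, and in all 2 members lay higher and 3 lower without overlap, against 8.46% and 10.7% of all genes. The Atp5b, Atp5e, Atp5sl and Cox7a2l calls each passed in 2 of 9 fits that left out 1 library. The count of higher members was 6 without mouse 74, 2 without mouse 16, 1 without mouse C and 0 without any 1 of mice A, B, D, 17, 18 and 19. The count of lower members was 1 without mouse A, C, D, 17, 18 or 19. Mouse 74 stood apart, with a median over the members of -0.38 (log2) from the 5-month mean, against 0.04 to 0.16 in the other older livers. The same library had the lowest hepatocyte sum of the livers (45242, next 80384) and the highest macrophage sum (542), whose part in its low values was not tested.

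In adipose tissue the members leaned upwards. Of 45 tested, 7 were higher and 0 lower at 20 months, against 9.75% and 9.35% of 14005 genes, and 42 had a change above 0, with a median of 0.35 (0.01 for all genes). No member was lower at an unadjusted p under 0.05 in limma, nor called lower by edgeR or DESeq2. The 7 were Sdhc and Sdhd of complex II, Uqcrc1 of complex III, Cox7a2 and Cox8b of complex IV, Atp5e of complex V, and Cox7a2l. Cox7a2 was 37.9, 32.0, 40.1 and 52.1 and then 56.4, 62.8, 72.7, 54.5 and 56.4 (0.58 ± 0.15, adjusted p = 0.0302). Uqcrc1 was 89.7, 78.9, 100.1 and 102 and then 112, 127, 149, 123 and 118 (0.44 ± 0.12, adjusted p = 0.0366). The ages did not overlap for these genes and for Atp5d, which was not called. Such separation upwards was seen in 8.30% of all genes, and downwards in 0 members and 9.10% of all genes.

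Of the called members, Cox8b rose most in adipose tissue, from 1.47, 1.55, 2.95 and 4.66 to 3.51, 10.8, 12.1, 9.80 and 9.95 (1.48 ± 0.35, adjusted p = 0.0273). Mouse 36 lay within the younger range. The fast fibre sums of these adipose libraries were 4.95 to 430.4 at 5 months and 14.2 to 187 at 20 months. At 20 months they did not run in the order of Cox8b. Cox8b is also known as a gene of brown and beige fat cells, and the 5 marker genes listed for those cells did not move together. Ucp1 (0.0332 to 0.319, then 0.531 to 2.46) and Cidea (0.498 to 1.25, then 3.35 to 5.74) were higher in all older libraries. Ppara was 7.43 to 11.2 and then 3.69 to 9.29, Elovl3 was 0.0582 to 2.07 and then 0.0779 to 0.295, and Dio2 was 0.699 to 1.31 and then 0.265 to 4.19. The sum of the 5 genes was 9.16 to 15.0 at 5 months and 11.6 to 15.0 at 20 months. At 5 months most of this sum was Ppara. In liver, through Ppara and Elovl3, the same sum was 408 to 961, so it does not mark those fat cells alone. The summed macrophage genes were 510.5 to 1291 and then 769.6 to 4675, the B cell genes 2.96 to 15.1 and then 11 to 150.0, and the mesothelial genes 53.9 to 117 and then 29.9 to 62.6. Their part in the changes of the members was not tested.

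The number of adipose calls depended on which library was left out. The median change was 0.21 to 0.51 over the 9 fits that left out 1 library. Without mouse D, 24 members were higher, 6 were without mouse C and 7 without mouse 36. For fits that left out 1 library, in any tissue, the calls over all genes are not given in this text. These counts therefore need not be particular to the members. None passed without any 1 of mice A, B, 37, 38, 39 and 40. Without both A and B the limma count was 0, with 3 members higher and 1 lower at an unadjusted p under 0.05, and the median change was 0.06.

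In muscle, 9 of 45 members were higher and 0 lower at 20 months, against 9.13% and 10.1% of 12720 genes. With the same rescaling the count was 17, with 1732 of all genes higher and 989 lower. Changes above 0 were seen in 40 members, with a median of 0.28 (0.02 for all genes), and no member was lower at an unadjusted p under 0.05 in limma, nor called lower by edgeR or DESeq2. The 9 spanned all complexes, with Sdhb and Sdhd, Uqcrc2, Cox7a2, the ATP synthase genes Atp5c1, Atp5e, Atp5f1 and Atp5o, and Cox7a2l. Uqcrc2, a core protein of complex III, was 509, 517, 571 and 496 and then 659, 603, 657, 642 and 657 (0.30 ± 0.08, adjusted p = 0.0266). Sdhb was 339, 334, 474 and 449.9 and then 537, 483, 541, 547 and 575 (0.44 ± 0.12, adjusted p = 0.0272). Cox7a2l was 76.1, 76.2, 127 and 105 and then 127 to 133 (0.46 ± 0.14, adjusted p = 0.0396). The ages did not overlap for these 3 members, against 8.63% of all genes, and in 0 members downwards, against 8.64%, although the gap was narrow for Sdhb and Cox7a2l.

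Of the called members, Atp5e moved furthest in muscle, with 85.4, 91.4, 351 and 272 at 5 months and 397, 348, 373, 309.9 and 407 at 20 months (1.14 ± 0.37, adjusted p = 0.0485). Mice A and B lay far below the older range, D just below it and C within it. The muscle of mouse A also held slow fibre RNA, with a sum over 5 slow fibre genes of 2463 against 157 to 596 in the other 8 muscles, and the part of this in the changes was not tested. Without mouse C, 33 members were higher. The count was 4 without mouse D or 57, 2 without mouse 56 or 59, and 0 without any 1 of mice A, B, 58 and 60. Without both A and B it was 0 in limma, with 1 higher and 2 lower at an unadjusted p under 0.05, and the median change was 0.09.

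**Figure D4:**
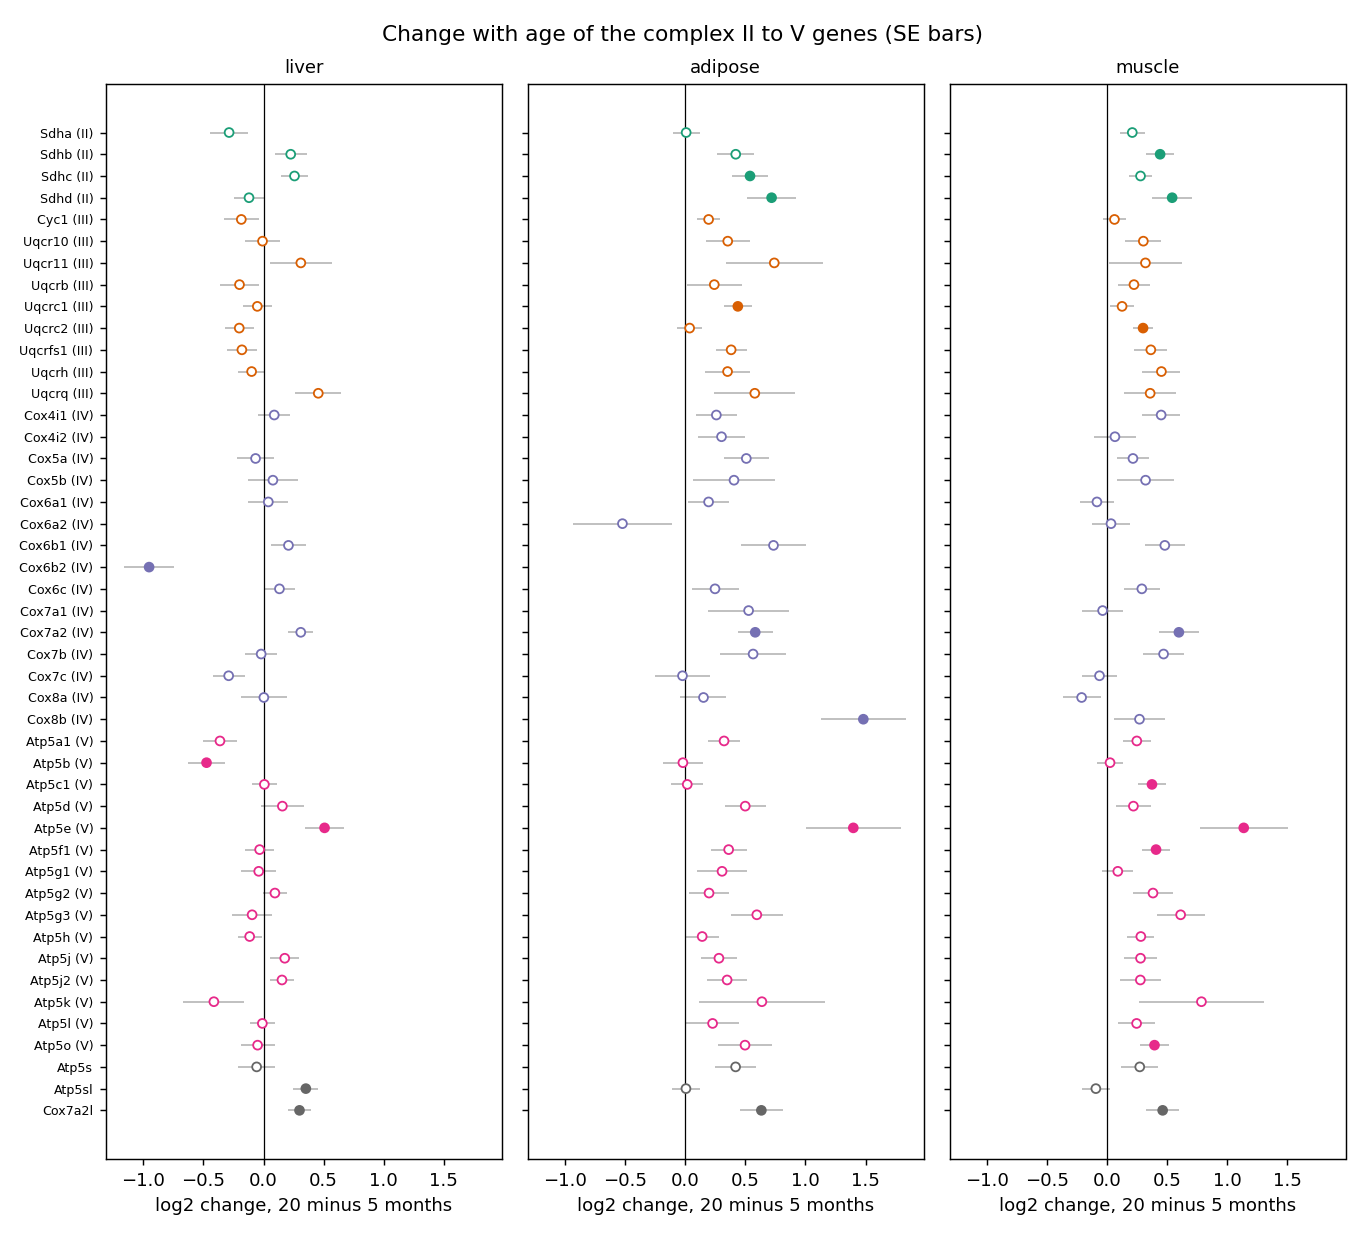
Log2 change from 5 to 20 months (± SE) of each tested member in liver, adipose tissue and muscle, by complex, with filled points for adjusted p under 0.05. Points scatter around 0 in liver (median -0.01) and lie mostly above 0 in adipose tissue (0.35) and muscle (0.28).

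The level of the members differed between the younger libraries. In muscle, mouse C was the highest of the 4 younger mice for 45 of 45 members. In adipose tissue mouse D was highest for 43 of 45 and mouse B lowest for 39, and in liver mouse B was lowest for 37 of 42. The members are short transcripts and have a median length of 743 bases, against 2860 for the other genes tested. For other genes of up to 800 bases the median change with age was 0.25 (liver), 0.41 (adipose tissue) and 0.27 (muscle), and for members of that length it was 0.00, 0.30 and 0.28. At 800 to 2000 bases the other genes were at 0.15, 0.16 and 0.11 and the members at -0.03, 0.41 and 0.34. Over 2000 bases the others were at -0.08, -0.05 and -0.03 and the 4 members at -0.16, 0.31 and 0.23. In a fit with a trend of each library on length and GC content removed, the counts were 0 higher and 4 lower in liver, 7 and 1 in adipose tissue, and 9 and 1 in muscle. The calls over all genes in that fit are not given here.

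**Figure D5:**
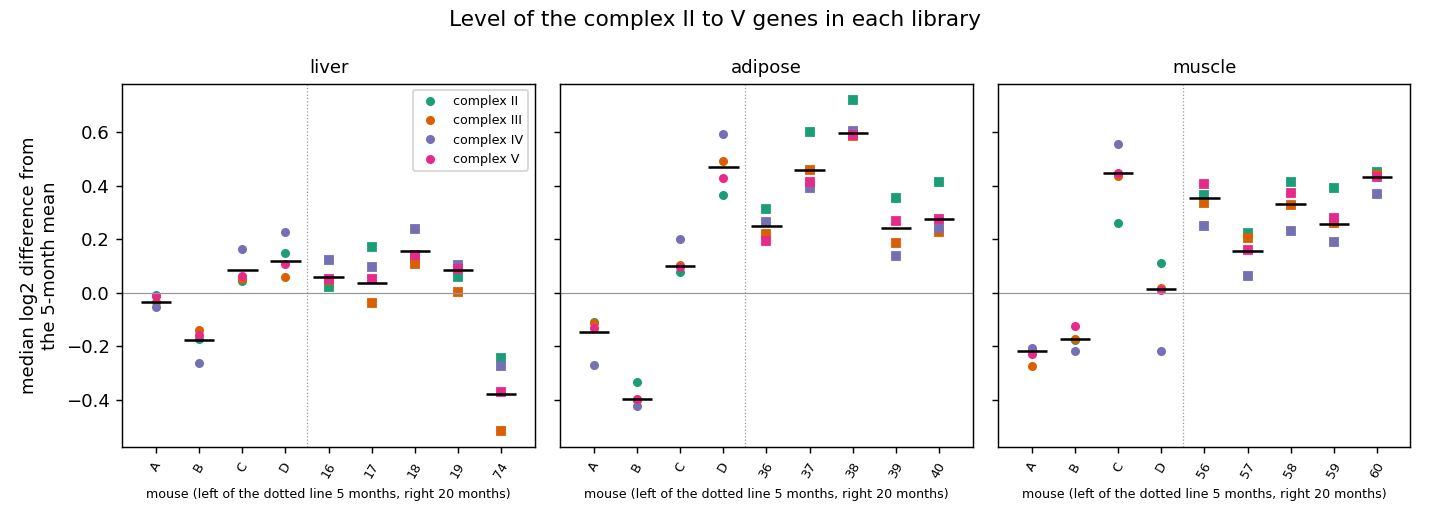
Median log2 difference of the members from the 5-month mean of the tissue in each library, in black, with the medians of complexes II to V as coloured points (circles 5 months, squares 20 months). Muscle C (0.45) and adipose D (0.47) lie with the older libraries, adipose B (-0.40) lies lowest in its tissue, and liver 74 (-0.38) lies below all other livers.

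The change with age was then compared between tissues in 1 fit of the 27 libraries. Liver differed from adipose tissue for 5 of 46 members, all with the lower change in liver, against 6.97% of 15572 genes. No member differed in the other direction (8.59% of genes), with 1 at an unadjusted p under 0.05 in limma and 0 called by edgeR. The smallest adjusted p was that of Atp5a1 (-0.68 ± 0.17, adjusted p = 0.00899), followed by Sdhd (-0.84 ± 0.25, adjusted p = 0.0247) and Cox8b (-1.23 ± 0.38, adjusted p = 0.0294). Uqcrc1 and Uqcrfs1, the Rieske iron-sulfur protein, were the others. For Cox8b the liver held almost no reads, and edgeR gave the opposite sign (3.33, adjusted p = 0.358), so its value here rests on the pseudocount of 1. Atp5a1 passed in each of 18 fits that left out 1 library and Sdhd in 16. The count of 5 was 10 without adipose D, 1 without adipose A or B, 2 without adipose 38, and 3 without liver A, C, D or 74 or adipose 37. Without both younger mice it was 0, with 5 at an unadjusted p under 0.05.

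Liver and muscle differed for Cox6b2 (-1.22 ± 0.27, adjusted p = 0.00381), Uqcrc2 (-0.50 ± 0.14, adjusted p = 0.0127) and Atp5a1 (-0.61 ± 0.17, adjusted p = 0.0166), each with the lower change in liver, against 8.19% of genes. Atp5sl differed the other way (0.45 ± 0.15, adjusted p = 0.0421), against 9.35% of genes. With the mouse as a block, since the same animals gave all tissues at 5 months, 7 members had the lower change in liver, against 9.17% of genes. Cox6b2, Uqcrc2 and Atp5a1 passed in each of 18 fits that left out 1 library. In muscle, however, Cox6b2 had at most 1 read in a library at 5 months and at most 11 at 20 months. Its value thus sets the fall in liver against a muscle level too low to show a change. Its size moved between -3.65 and -1.02 over the alternatives. The count of 3 was 13 without muscle C and 6 without liver 16. It was 0 without mice A and B, with 6 at an unadjusted p under 0.05, and Atp5sl then still passed (adjusted p = 0.0275).

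Between adipose tissue and muscle, Cox8b alone differed (1.21 ± 0.38, adjusted p = 0.0327), with the greater change in adipose tissue. In all genes, 8.34% differed that way and 6.34% the other way. The next in order, Atp5c1 (-0.36, adjusted p = 0.136) and Uqcrc1 (0.31, adjusted p = 0.179), did not pass. The Cox8b call was lost in 9 of 18 fits that left out 1 library (adipose A, B, 37, 38, 39 or 40, or muscle C, 57 or 58) and was lost without mice A and B (adjusted p = 0.234). No member had the greater change in muscle in limma or edgeR, with 1 at an unadjusted p under 0.05 in limma. The 3 comparisons share groups, so their values are not independent.

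Genes that serve the complexes were read from fixed lists. The 6 mitochondrially encoded subunits of complexes III to V were listed at 0 in all 27 libraries, so nothing can be said of those subunits. Of 49 other listed genes tested, which comprise assembly factors, cytochrome c, supercomplex factors and regulators of mitochondrial biogenesis, 3 were higher and 6 lower in liver at 20 months, 6 higher and 3 lower in adipose tissue, and 14 higher and 1 lower in muscle. Over all genes, 10% were higher and 9.79% lower in liver, 9.75% and 9.35% in adipose tissue, and 9.13% and 10.1% in muscle. In liver the change furthest down was that of the coactivator Ppargc1b (-0.76 ± 0.21, adjusted p = 0.0319) and furthest up that of Tmem242, which takes part in assembly of the ATP synthase (0.59 ± 0.13, adjusted p = 0.0154). The complex II assembly factor Sdhaf4 rose most in adipose tissue (1.39 ± 0.32, adjusted p = 0.0257) and in muscle (1.21 ± 0.29, adjusted p = 0.0168). Tfb2m, a mitochondrial transcription factor, fell in adipose tissue (-0.78 ± 0.20, adjusted p = 0.0318), and the coactivator gene Pprc1 fell in muscle (-0.72 ± 0.13, adjusted p = 0.00592).

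Among the regulators, Esrra, a nuclear receptor that acts on respiratory genes, rose in adipose tissue from 9.48, 9.05, 13 and 18.7 to 18, 24.5, 27.9, 21.6 and 19.8 (0.82 ± 0.21, adjusted p = 0.0314). It was not called in muscle (0.49 ± 0.26, adjusted p = 0.184) or liver (-0.26 ± 0.13, adjusted p = 0.186). Its muscle values of 64.7 and 63.7 in mice A and B lay far below 154 and 155 in C and D. The coactivator Ppargc1a did not pass in adipose tissue (-1.38 ± 0.44, adjusted p = 0.0532), liver (-0.53 ± 0.23, adjusted p = 0.118) or muscle (0.09 ± 0.27, adjusted p = 0.841). Gabpa, whose protein binds ETS sites, fell in liver from 75.5, 79.6, 76.5 and 69.3 to between 48.4 and 62.8 (-0.49 ± 0.10, adjusted p = 0.0119) and rose in muscle (0.29 ± 0.09, adjusted p = 0.0463). In adipose tissue it was at -0.02 ± 0.10 (adjusted p = 0.87). Tfam, which packages and transcribes mitochondrial DNA, rose in muscle from 46.9, 31.9, 43.8 and 44.7 to 59.4, 58.6, 67.4, 55.1 and 64.4 (0.55 ± 0.12, adjusted p = 0.0124). Tfam was not called in liver (-0.10, adjusted p = 0.462) or adipose tissue (-0.01, adjusted p = 0.938). Nrf1 did not pass in liver (-0.18, adjusted p = 0.308), adipose tissue (-0.31, adjusted p = 0.0971) or muscle (-0.14, adjusted p = 0.254).

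Promoters of 37 of the 48 members were in the RefSeq table. The NRF1 core was found in 12 of them (32.4%), against 7% of the 26988 other genes in the table, counted in the same way with a match in any promoter of the gene. The ETS letters were also found in 12 (32.4%), against 9.90%. The E-box CACGTG, the core of the elements that dimers of Mlx bind, was found in 5 (13.5%), against 8.09%, and the YY1 letters AAGATGGC in 4 (10.8%), against 3.18%. Per promoter, over all 32851 promoters of the same length, the shares were 6.25%, 8.86%, 7.15% and 2.75%. Member promoters held a median of 19 CpG pairs and promoters in general 7, and the motif letters include CpG pairs themselves. A match describes letters in this window, not binding.

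Assignment of reads could affect some members. Of the 50-base words in their transcripts, 26 members shared none with other genes, and 4 shared more than 50%, namely Atp5g2 (87.4%), Atp5l (68.5%), Cox7c (53.0%) and Atp5h (50.5%). Exons of Cox5a overlapped another gene on the opposite strand over 41.7% of their length and those of Uqcrc2 over 26.6%. The libraries were made with a directional kit, and whether strand was used in counting is not given in the sources used here.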

How the data were processed

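RNA was selected for poly-A, made into directional libraries and sequenced by the authors, who used CLC Genomics Workbench. Their processing notes name GRCm38.p6 and mm10. The deposited signal per gene is CPM (reads scaled to library depth) divided by a factor per library. Every value was a whole multiple of what 1 read is worth (tolerance 0.02), so whole reads were recovered.

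Log2(value + 1) was tested with limma 3.58.1 (R 4.3.3; trend), keeping genes that reached 1 in 4 or more samples and adjusting p-values over all genes tested (Benjamini-Hochberg, threshold 0.05). Age was tested per tissue, and tissues and differences in age change in 1 fit of 27 samples. Alternatives included edgeR 4.0.16 and DESeq2 1.42.0 on recovered reads. The limma step was tested on simulated counts that held no shift shared by a whole library. Of genes changed 2-fold, 99% to 100% were called in the right direction, and of those changed 1.5-fold, 61% to 67%. The simulation cannot speak to how the calls depend on single libraries. The design had assumed plain CPM.

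Same-numbered 5-month samples came from the same mouse, and their deviations correlated at -0.02 to 0.29 over 12 pairs. Members and lists were chosen with earlier results of these data known. Named were the isoform sets, Cox7a2l, the Sdh genes, called members with separate ages, the 3 smallest adjusted p per difference between tissues, the highest member per complex and tissue, the called genes of largest change from the other lists, and 5 regulators. Further members, such as Atp5e, were named after their values were seen.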

Additional observations from a re-analysis of the deposited data

Results flagged for a closer look

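In 12 of 147 groups of 4 or 5 libraries, 1 library lay far from the rest of its group, where chance would give about 1 in 20 if groups were independent. These groups are 26 genes read in the same libraries, so they are not independent. Muscle of mouse C at 5 months was far above the other 3 for Cox7a1 (254, next 151), Cox7a2 (145, next 82.1), Cox8b (429, next 200.5) and Atp5g1 (615, next 415). The liver of mouse 74 at 20 months was far below its group for Cox6a1 (289, next 432), Sdha (354, next 524), Uqcrc1 (259, next 350.4) and Atp5a1 (884, next 1149). In adipose tissue, mouse 38 at 20 months was far above for Atp5g2 (98.1, next 79.4) and Cox7a2l (129, next 97.2), mouse D at 5 months for Cox7a2l (88.9, next 56.2), and mouse 36 at 20 months was far below for Cox8b (3.51, next 9.80).

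The change with age differed between tissues for 10 values, by the interaction term in limma. Against adipose tissue, the change in liver was lower for Atp5a1 (-0.68), Sdhd (-0.84), Cox8b (-1.23), Uqcrc1 (-0.49) and Uqcrfs1 (-0.56). Against muscle, it was lower for Cox6b2 (-1.22), Uqcrc2 (-0.50) and Atp5a1 (-0.61) and higher for Atp5sl (0.45). Cox8b had the greater change in adipose tissue than in muscle (1.21). Without mice A and B, that of Atp5sl alone passed (0.68, adjusted p = 0.0275). The other 9 kept their direction, at -0.56 (Atp5a1), -0.52 (Sdhd), -0.77 (Cox8b), -0.38 (Uqcrc1) and -0.43 (Uqcrfs1) against adipose tissue, at -1.02 (Cox6b2), -0.52 (Uqcrc2) and -0.47 (Atp5a1) against muscle, and at 1.03 for Cox8b between adipose tissue and muscle, with adjusted p in limma from 0.0824 to 0.348. With 2 younger mice left, these lost calls do not show that the differences came from A and B.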

How the results depend on the processing

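Counts of called members are given as higher and lower. Except where stated, the calls over all genes in the same fit are not given. A count that moved thus need not be particular to the members. The isoform differences between tissues kept their direction and call for Cox6a1, Cox6a2, Cox8b and Cox7a1 between muscle and liver, and the tissue counts moved little. Leaving out 1 library gave 3 higher and 42 lower for adipose against liver, 27 to 30 higher and 3 to 7 lower for muscle against liver, and 43 and 3 for muscle against adipose tissue. For age it gave 0 to 6 higher and 1 to 2 lower for liver, 0 to 24 and 0 for adipose tissue, and 0 to 33 and 0 for muscle. For differences in age change it gave 0 and 1 to 10 (liver against adipose tissue), 0 to 1 and 3 to 13 (liver against muscle), and 0 to 1 and 0 to 1 (adipose tissue against muscle).

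In liver with age, against 3 higher and 2 lower, the counts were 1 and 1 with no filter on low values, 1 lower with a mean value of at least 5, 1 higher with median-of-ratios factors, 6 and 1 with quantile normalization, 11 and 1 after rescaling without the 20 most abundant genes, 1 higher with edgeR, 0 and 4 with the length and GC trend removed, 5 and 5 with array weights, and 1 higher with all 27 samples in 1 fit. In adipose tissue, against 7 higher, they were 2 with no filter, 35 with array weights, 12 with DESeq2 and 18 in 1 fit, and 1 was lower with the trend removed. In muscle, against 9 higher, they were 1 with no filter, 18 with quantile normalization, 17 after rescaling and 14 with array weights, and 1 was lower with the trend removed. For liver against adipose tissue, against 5 lower, they were 3 with a pseudocount of 0.1, 3 with no filter, 1 higher and 2 lower after rescaling, 1 lower with edgeR and 11 with the trend removed. For liver against muscle, against 1 higher and 3 lower, they were 5 lower with a mean of at least 5, 0 higher with quantile normalization, and 0 and 17 with the trend removed. For adipose tissue against muscle, against 1 higher and 0 lower, they were 0 higher with a pseudocount of 0.1 or no filter, and 2 lower after rescaling or with the trend removed. The causes were not tested.

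The fit with the mouse as replicate block gave 7 lower for liver against muscle, and together with the trend 11 lower for liver against adipose tissue, 0 higher and 19 lower for liver against muscle and 2 lower for adipose tissue against muscle. The block moved no other count of members by over 1.5 times.

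An alternative chosen after seeing the data left out mice A and B. It gave 0 members higher and 0 lower in each age test, 0 lower for liver against adipose tissue and for liver against muscle, and 0 higher for adipose tissue against muscle. It has 2 younger mice, and of all genes it called 54 higher and 39 lower in liver (1269 and 1239 with all mice), 12 and 2 in adipose tissue (1365 and 1309), and 469 and 657 in muscle (1161 and 1290).

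Directions turned between adipose tissue and liver for Cox8a (0.0461 with quantile normalization, 0.17 after rescaling), Atp5g2 (0.0314) and Cox7a2l (0.12) after rescaling, between muscle and adipose tissue for Cox7a2l (-0.12 after rescaling), and between liver and adipose tissue with age for Cox8b (3.33 with edgeR). Rescaling moved the calls over all genes to 10234 higher and 2609 lower for adipose against liver (6208 and 5687) and to 2710 and 9669 for muscle against adipose tissue (4808 and 6531). The median age change of the members ranged over the alternatives from -0.21 to 0.16 for liver, 0.06 to 0.51 for adipose tissue and 0.09 to 0.44 for muscle. Depth limited Cox7b2, Cox8c, in liver Cox8b and Cox6a2, and in muscle Cox6b2.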
